A study of Mus musculus with 4 samples.

Results

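Genes of fatty acid sensing, uptake and storage were followed in RAW264.7 cells, a mouse macrophage line, with and without the peroxisomal protein Mfp2 and with and without lipopolysaccharide (LPS). The 10 genes were found by their symbol on the array (Pparg, Ppard, Cd36, Fabp4, Fabp5, Lpl, Plin2, Angptl4, Acsl1 and Pdk4) among 37074 named genes and transcripts, and were read by 20 of 56605 probes. They were selected on earlier results of these same arrays, the LPS and genotype differences in scaled log2 signal, so those differences are given as a description, with no test. The 4 groups were wild-type cells left untreated, wild-type cells given LPS, Mfp2-/- cells left untreated and Mfp2-/- cells given LPS. With a single array in each group, none of the differences could be checked against replicates, and fewer cells with a transcript cannot be told apart from less of it per cell. Mfp2 is the multifunctional enzyme of peroxisomal fatty acid beta-oxidation encoded by Hsd17b4. How the Mfp2-/- cells were made, whether they are 1 clone, and the dose and duration of LPS are not stated in the labels. The study asked how loss of this enzyme alters gene expression in the macrophage line and its reaction to LPS.

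PPAR gamma and PPAR delta are nuclear receptors that bind fatty acids and their derivatives and act on DNA together with a retinoid X receptor. In macrophages PPAR gamma is known for switching on genes of lipid uptake and binding, among them Cd36 and Fabp4, and PPAR delta for genes such as Angptl4, Plin2 and Pdk4. LPS, the bacterial cell wall component sensed by Toll-like receptor 4, is known to repress Pparg in macrophages and to favour lipid droplet formation.

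The signal of Hsd17b4 itself was 4482 in untreated wild-type cells, 2915 in wild-type cells with LPS, 2545 in untreated Mfp2-/- cells and 1217 in Mfp2-/- cells with LPS, so the transcript was lower in the Mfp2-/- cells and still detected there. Whether the probe lies in the altered part of the gene is not known. All 8 macrophage markers, such as Csf1r, Cd68 and Lyz2, were well above background on every array, with summed signals between 355920 and 391617. Because Pparg, Cd36 and Fabp4 are also genes of fat cells, adipocyte markers were read too: 1 of 6 was above background in untreated wild-type cells and 2 of 6 on each of the other arrays, with summed signals between 145 and 250, and Adipoq, Cidec and Cfd were below background on all 4 arrays. Of the markers of other cells, 0 to 1 of 4 fibroblast, 0 to 1 of 3 B cell, 0 to 1 of 3 endothelial and 2 to 3 of 4 T cell genes were above background on an array. The share of spots that passed this background criterion was 47.4% to 49.7% per array. Of the 10 genes, 9 were well above background on all 4 arrays. Pdk4, the kinase that restrains glucose oxidation by switching off pyruvate dehydrogenase, was below background on all 4, with signals between 4.98 and 5.58, so no difference is given for it. Signals are spot intensities on a linear scale. Differences are on the log2 scale after each array was centred on its 75th percentile, and a gene is counted as higher or lower from a difference of 1, which is 2-fold. The error given with a difference is a technical SD taken from replicate spots of other probes of like signal within an array. It does not cover differences between cultures.

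Promoter sequence is shown for the genes whose window held the 6-base motif that nuclear receptors bind, AGGTCA, since PPARs act through it. RefSeq windows of the 250 bases before a transcription start (GRCm38.p6) were at hand for 6 of the 10 genes, in 9 windows. The motif, searched on both strands as AGGTCA or TGACCT, was in 4 of these 9 windows, of Pparg, Cd36 and Plin2, and in 14.0% of all 32851 windows of that length. The direct repeat that PPARs bind, AGGTCA, any 1 base and AGGTCA again, which contains the 6-base motif 2 times, was in 0 of the 9 and in 0.0335% of all windows. The NF-kB motif, GGGA, any 1 base and TTTCC, was also searched on both strands, and was in 0 of the 9 and in 0.356% of all. The windows follow 5′ to 3′ along the gene, with the match in capitals.
Cd36 (chr5:17835897-17836146, minus strand): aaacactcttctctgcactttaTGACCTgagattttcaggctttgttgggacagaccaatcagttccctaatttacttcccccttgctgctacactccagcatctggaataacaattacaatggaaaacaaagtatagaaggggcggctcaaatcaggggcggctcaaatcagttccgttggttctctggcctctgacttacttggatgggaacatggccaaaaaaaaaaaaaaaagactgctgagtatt
Pparg, first start (chr6:115360894-115361143, plus strand): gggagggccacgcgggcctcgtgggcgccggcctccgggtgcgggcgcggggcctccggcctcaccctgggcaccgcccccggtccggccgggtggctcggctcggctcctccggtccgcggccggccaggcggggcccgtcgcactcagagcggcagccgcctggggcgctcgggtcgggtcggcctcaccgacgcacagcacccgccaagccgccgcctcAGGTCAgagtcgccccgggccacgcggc
Pparg, next start (chr6:115362099-115362348, plus strand): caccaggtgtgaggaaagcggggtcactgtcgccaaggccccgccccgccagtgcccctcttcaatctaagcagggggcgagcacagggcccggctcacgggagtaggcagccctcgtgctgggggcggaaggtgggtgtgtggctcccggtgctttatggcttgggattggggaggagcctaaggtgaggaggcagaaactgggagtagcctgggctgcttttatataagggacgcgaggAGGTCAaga
Plin2 (chr4:86670060-86670309, minus strand): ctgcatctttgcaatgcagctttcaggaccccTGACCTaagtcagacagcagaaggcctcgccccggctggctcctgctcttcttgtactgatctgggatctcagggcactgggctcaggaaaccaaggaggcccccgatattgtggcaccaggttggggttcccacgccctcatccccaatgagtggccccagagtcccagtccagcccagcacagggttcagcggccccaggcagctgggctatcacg

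The motif began 228 bases before the start in Cd36, 28 and 9 bases before it in the windows of Pparg, and 218 bases before it in Plin2. A match of letters is a description and shows no binding.

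Pparg and Ppard differed in opposite directions with LPS. Pparg gave a signal of 271 in untreated wild-type cells, 70.0 in wild-type cells with LPS, 52.0 in untreated Mfp2-/- cells and 30.2 in Mfp2-/- cells with LPS. It was highest in untreated wild-type cells and low on the other 3 arrays, where it lay between 1.53 and 3.18 times the lowest signal well above background. The difference between Mfp2-/- and wild type was -2.43 ± 0.29 (technical SD) without LPS, a 5.39-fold lower level, and -1.12 ± 0.49 with LPS. With normexp background correction these were -1.48 and -0.38, and with median centring the second was -0.96, so the call with LPS was lost under both. LPS minus untreated was -1.80 ± 0.29 in wild type (-1.23 with normexp) and -0.50 ± 0.49 in Mfp2-/- cells, a value about the size of its technical SD. The LPS response of Mfp2-/- cells minus that of wild type was thus 1.31 ± 0.58. The probe read (chr6:115440213-115440272, mm9) is listed in the files for 2 RefSeq transcripts, so isoforms were not told apart, and a second probe of Pparg was below background on all 4 arrays.

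Ppard, the receptor found in most tissues, went the other way with LPS. Its signal was 545 in untreated wild-type cells, 1614 in wild-type cells with LPS, 657 in untreated Mfp2-/- cells and 2219 in Mfp2-/- cells with LPS. Both LPS arrays lay above both untreated arrays. The LPS difference was 1.72 ± 0.14 in wild type and 2.04 ± 0.12 in Mfp2-/- cells, and the genotype difference was 0.22 ± 0.14 without LPS and 0.55 ± 0.12 with LPS, below 2-fold in both conditions.

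**Figure D1:**
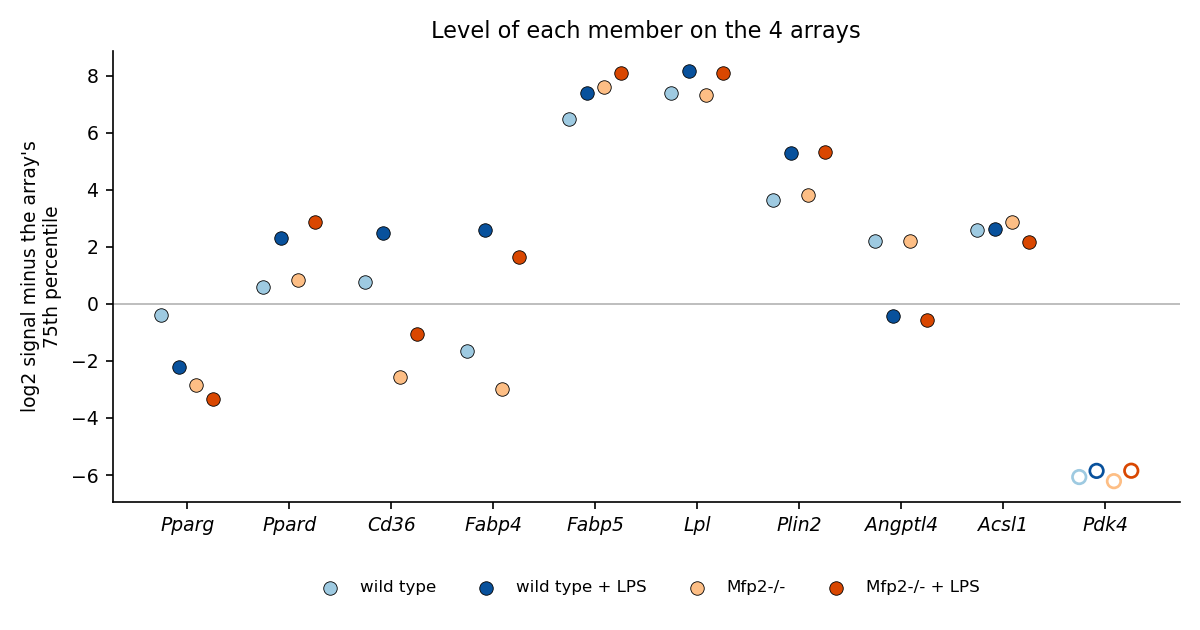
Log2 signal minus the array's 75th percentile (y axis) of the 10 genes (x axis), with 1 point for each array. Filled points were well above background and the open points of Pdk4 were not. Within a gene the 4 points can be compared, while levels of different genes cannot, since their probes differ. Both Mfp2-/- points of Cd36 lie below both wild-type points.

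Cd36, the membrane receptor that takes up long-chain fatty acids and oxidised lipoprotein, showed the largest genotype difference of the 9 measured genes. Its signal was 612 in untreated wild-type cells and 1803 in wild-type cells with LPS, against 62.1 in untreated Mfp2-/- cells and 146 in Mfp2-/- cells with LPS. The signal of the Mfp2-/- cells with LPS was below that of the untreated wild-type cells. The share of all genes whose arrays separate by genotype or by LPS was not computed. Such an order is therefore only a description, here as for Ppard and Fabp5. Cd36 was 10.2-fold lower in Mfp2-/- cells without LPS (-3.35 ± 0.29) and 11.6-fold lower with LPS (-3.54 ± 0.14). Among the genes well above background on both arrays, it was the 21st lowest of 16418 without LPS and the 14th lowest of 16115 with LPS. The genotype differences were -2.33 and -3.05 with normexp background correction. Cd36 was higher with LPS in both genotypes, by 1.71 ± 0.14 in wild type and 1.52 ± 0.29 in Mfp2-/- cells, and the responses differed by -0.19 ± 0.33. With normexp the LPS difference in Mfp2-/- cells was 0.89, below 2-fold, and the responses differed by -0.72. Cd36 was read by 1 probe (chr5:17288600-17288659, mm9).

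The fatty acid carriers of the cytoplasm differed from each other. Fabp4, the carrier shared by fat cells and macrophages, gave a signal of 115 in untreated wild-type cells, 1945 in wild-type cells with LPS, 47.1 in untreated Mfp2-/- cells and 939 in Mfp2-/- cells with LPS. LPS went with an 18.8-fold higher level in wild type (4.24 ± 0.29) and a 24.3-fold higher level in Mfp2-/- cells (4.60 ± 0.29), the largest LPS differences of the 9 genes, and 3.65 and 3.38 with normexp background correction. Within each condition the Mfp2-/- cells were lower, by -1.33 ± 0.39 without LPS and -0.96 ± 0.14 with LPS. The first of these was -0.58 with normexp, below 2-fold. A second Fabp4 probe, shown because it reads another stretch of the same mRNA (chr3:10208442-10208501, mm9), was below background in both untreated groups, and gave at least 14.8-fold in wild type and at least 10.3-fold in Mfp2-/- cells for the LPS difference and -0.72 ± 0.14 for the genotype difference with LPS.
Fabp4 probe A_52_P564544: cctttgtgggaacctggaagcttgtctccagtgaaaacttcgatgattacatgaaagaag

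Fabp5, the related carrier named after the epidermis, was higher in Mfp2-/- cells instead. Its signal was 31712 in untreated wild-type cells, 54222 in wild-type cells with LPS, 72070 in untreated Mfp2-/- cells and 83756 in Mfp2-/- cells with LPS. Both Mfp2-/- arrays lay above both wild-type arrays. The genotype difference was 1.14 ± 0.10 without LPS, or 2.20-fold, and 0.72 ± 0.10 with LPS, and the LPS difference was 0.92 ± 0.10 in wild type and 0.50 ± 0.10 in Mfp2-/- cells. Its single probe was not tested for cross-hybridisation with related sequences. The other protein-coding genes of the same chromosome 3 cluster, Pmp2, Fabp9 and Fabp12, were below background on all 4 arrays.

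With LPS the inhibitor of lipoprotein lipase was lower in both genotypes, and the lipase itself did not pass 2-fold by its brightest probe. Lpl encodes the enzyme that frees fatty acids from lipoprotein triglyceride, and the brightest of its 6 probes gave a signal of 59611 in untreated wild-type cells, 91846 in wild-type cells with LPS, 59183 in untreated Mfp2-/- cells and 82125 in Mfp2-/- cells with LPS. With it LPS differed from untreated by 0.77 ± 0.10 in wild type and 0.76 ± 0.10 in Mfp2-/- cells, and the genotypes by -0.06 ± 0.10 and -0.07 ± 0.10. Angptl4, which encodes a secreted inhibitor of that enzyme, gave 1655 and 1704 in untreated wild-type and Mfp2-/- cells, and 241 and 206 with LPS. Its LPS difference was -2.63 ± 0.14 in wild type and -2.76 ± 0.14 in Mfp2-/- cells, a 6.20-fold and a 6.80-fold lower level. The genotypes differed by -0.0045 ± 0.14 without LPS and -0.14 ± 0.14 with LPS, no more than the technical SD.

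The Lpl probes fell into 2 sets. The 3 probes for which the files list a RefSeq mRNA were higher with LPS in both genotypes, by 0.77 to 1.20 in wild type and by 0.76 to 1.26 in Mfp2-/- cells. Of these, 2 passed 2-fold in both genotypes, and they are shown with their mm9 positions, chr8:71425050-71425109 and chr8:71419652-71419711.
Lpl probe A_52_P257812: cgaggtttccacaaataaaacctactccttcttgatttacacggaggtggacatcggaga
Lpl probe A_66_P123790: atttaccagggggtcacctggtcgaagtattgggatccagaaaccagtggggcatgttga

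The other 3 Lpl probes carry only cDNA clone or Ensembl transcript entries in the files, and start between 71405538 and 71413311 on mm9 chromosome 8, where the RefSeq probes start between 71419652 and 71430267. No annotation of that build was used. Probe A_55_P2900592 gave 5458 in untreated wild-type cells, 6080 in wild-type cells with LPS, 4289 in untreated Mfp2-/- cells and 2361 in Mfp2-/- cells with LPS, and was lowest on the last array. Its LPS difference was 0.31 ± 0.10 in wild type and -0.58 ± 0.10 in Mfp2-/- cells. Probe A_55_P2738847 was alike, with 0.29 ± 0.10 and -0.69 ± 0.14. In LPS-treated cells both were -1.28 between Mfp2-/- and wild type, past 2-fold, where the RefSeq probes lay between -0.29 and -0.07. Probe A_55_P2715720 differed by 0.0059 ± 0.14 and 0.0025 ± 0.14 with LPS. All 6 probes were below 0 in both genotype comparisons.

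**Figure D2:**
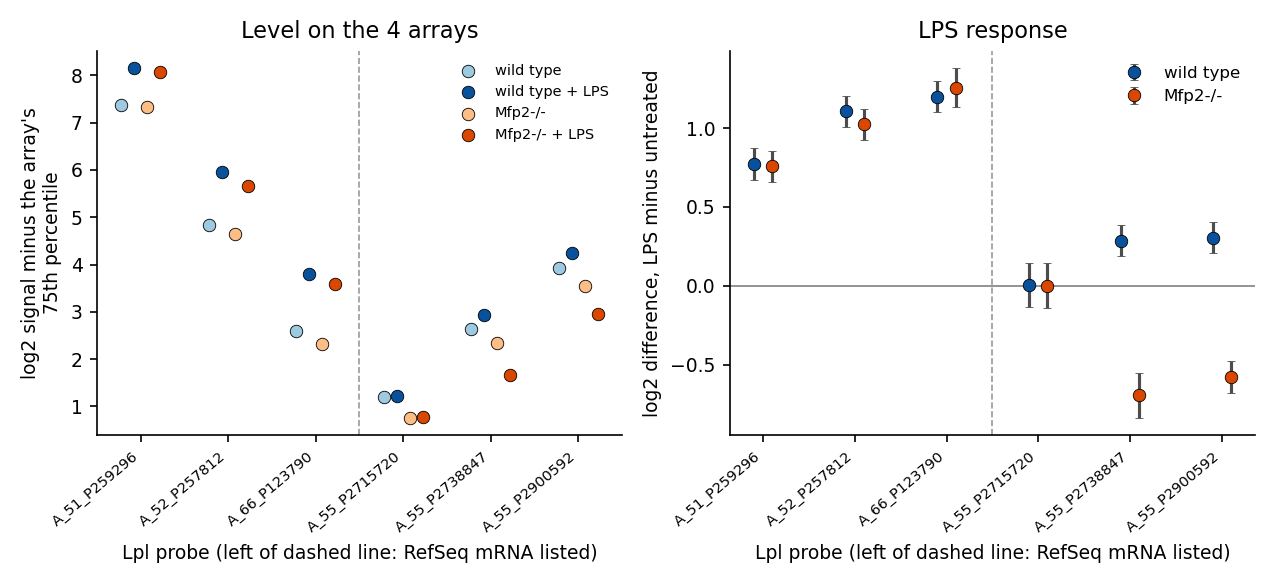
The 6 Lpl probes (x axis), with those listing a RefSeq mRNA left of the dashed line. The left panel gives the log2 signal minus the array's 75th percentile on each of the 4 arrays, and the right panel the LPS difference in each genotype with its technical SD as the error bar. Left of the line the genotypes overlap within these bars in the LPS response, and 2 of the 3 probes right of it are above 0 in wild type and below 0 in Mfp2-/- cells.

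Plin2, the protein that coats lipid droplets in macrophages, was higher with LPS to a like extent in both genotypes. Its signal was 4505 in untreated wild-type cells, 12523 in wild-type cells with LPS, 5187 in untreated Mfp2-/- cells and 12082 in Mfp2-/- cells with LPS. The LPS difference was 1.63 ± 0.10 in wild type and 1.51 ± 0.10 in Mfp2-/- cells, and a second probe gave 1.31 ± 0.14 and 1.36 ± 0.14. The genotypes differed by 0.16 ± 0.10 without LPS and 0.04 ± 0.10 with LPS.

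Acsl1 encodes the enzyme that attaches coenzyme A to long-chain fatty acids before they are stored or burned, and it passed 2-fold in none of the comparisons. Its signal was 2149 in untreated wild-type cells, 1981 in wild-type cells with LPS, 2696 in untreated Mfp2-/- cells and 1348 in Mfp2-/- cells with LPS. LPS differed from untreated by 0.03 ± 0.12 in wild type and by -0.71 ± 0.12 in Mfp2-/- cells. A second probe of Acsl1 gave 0.32 ± 0.14 and 0.17 ± 0.14, so the lower level in LPS-treated Mfp2-/- cells rests on 1 probe. Another probe was below background on all 4 arrays.

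**Figure D3:**
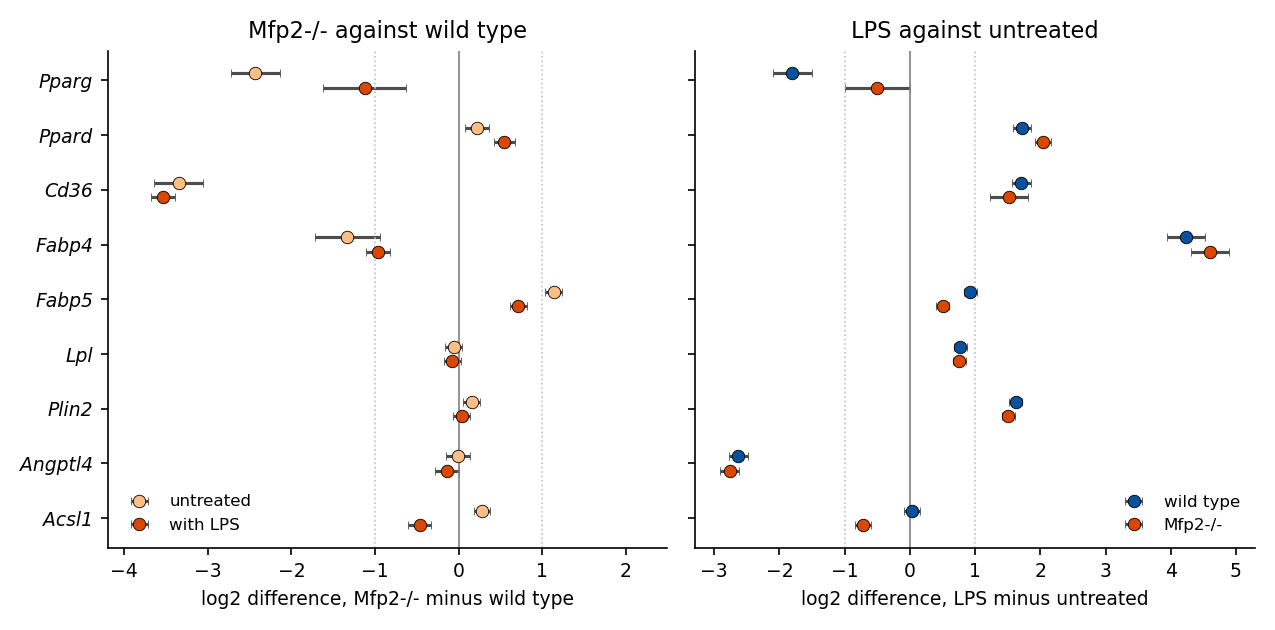
Log2 differences (x axes) of the 9 genes above background, with the technical SD of spots as the error bar and dotted lines at 2-fold. The left panel compares Mfp2-/- with wild-type cells without and with LPS, and the right panel compares LPS with untreated in each genotype. Pparg, Cd36 and Fabp4 lie left of 0 in both genotype comparisons and Fabp5 lies right of 0, while the LPS responses of Cd36, Fabp4, Plin2 and Angptl4 lie close together in the 2 genotypes.

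Counted together, LPS went with a higher level of the same 4 of 9 genes in each genotype, Ppard, Cd36, Fabp4 and Plin2. In wild type Pparg and Angptl4 were lower, and in Mfp2-/- cells Angptl4 was. Of all genes compared, 9.71% were higher and 8.58% lower in wild type (18.3% together), and 11% were higher and 12.5% lower in Mfp2-/- cells (23.5% together). With spike-in centring the all-gene shares were 7.22% and 12.3% in wild type and 8.06% and 17.3% in Mfp2-/- cells, and with median centring 13.5% and 10.2% in Mfp2-/- cells. The median of the 9 differences was 0.92 in wild type and 0.76 in Mfp2-/- cells, against 0.01 and -0.0072 over all genes compared. Between genotypes without LPS 1 of 9 was higher, Fabp5, and 3 were lower, Pparg, Cd36 and Fabp4, where 3.09% of all genes were higher and 3.9% lower (6.99% together). With LPS 0 were higher and 2 were lower, Pparg and Cd36, where 1.85% of all genes were higher and 4.39% lower (6.25% together), or 3.005% and 3.46% with median centring. With normexp the all-gene shares were 1.18% and 1.67% without LPS and 0.71% and 1.74% with LPS. The medians of the 9 were -0.0045 without LPS and -0.14 with LPS, against 0.06 and 0.05 over all genes. The LPS responses differed by 2-fold for 1 of 9, Pparg, where 1.69% of all genes were higher and 2.92% lower in Mfp2-/- cells (4.6% together), or 2.29% and 2.14% with median centring. The members were picked with these contrasts known, so nothing is read from their share against these backgrounds.

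Genes with a profile most like those of Pparg and Cd36 were sought among 10366 other named genes above background on all 4 arrays, by the largest distance between the 4 log2 values after each gene's own mean was taken off. The nearest to Pparg were Fam107b (distance 0.42), the early response gene Fos (0.52) and Nxf7 (0.55). Fos gave signals of 2863 and 1156 in untreated and LPS-treated wild-type cells and 836 and 560 in untreated and LPS-treated Mfp2-/- cells. The nearest to Cd36 were Ocstamp (0.45), which encodes a membrane protein of osteoclast fusion, Sh2d5 (0.56) and Il7r (0.58), a chain of the interleukin 7 receptor. Ocstamp gave 1023 and 2819 in wild-type cells and 160 and 277 in Mfp2-/- cells. The likeness is a description over 4 arrays.

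The rest of the pathway was read from 79 other genes in 5 lists, of which 63 were above background on at least 1 array. In wild type LPS went with 7 of 61 compared genes higher and 4 lower, which is 11.5% and 6.56%, against 9.71% and 8.58% of all genes. In Mfp2-/- cells it went with 5 of 63 higher and 11 lower, which is 7.94% and 17.5%, against 11% and 12.5% of all genes. The 11 lower were 6 with normexp (9.52%, against 7.30% of all genes) and 17 with spike-in centring (27.0%, against 17.3%). The 5 higher were 11 with median centring (17.5%, against 13.5% of all genes). Between genotypes without LPS 5 of 61 were higher and 1 lower, which is 8.20% and 1.64%, against 3.09% and 3.9% of all genes. The 5 higher were 2 with normexp (3.28%, against 1.18% of all genes). With LPS 1 of 59 was higher and 1 lower, which is 1.69% each, against 1.85% and 4.39% of all genes. The lower were 3 with spike-in centring (5.08%, against 4.84% of all genes). These shares are a description, since the lists were chosen with results known.

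Among the partners and cofactors of PPARs, 0 of 13 were called between genotypes in either condition. Of all genes, 6.99% were called without LPS and 6.25% with LPS. With LPS 2 of the 13 lay at the threshold, Ppargc1b at -0.99 and Rxra at -0.98. Both were past it with spike-in centring (-1.05 and -1.04). With median centring they were -0.83 and -0.82, and with the mean of its probes Ppargc1b was -0.73. Rxra, a retinoid X receptor that pairs with PPARs, gave 129 and 91.4 in untreated and LPS-treated wild-type cells and 102 and 43.5 in Mfp2-/- cells, and its genotype difference with LPS was -0.40 with normexp. Rxrb, another of these receptors, gave 11130 and 7153 in wild-type cells and 14352 and 8645 in Mfp2-/- cells. Its genotype difference was 0.32 without LPS and 0.36 with LPS, the other way from Rxra. With LPS, 1 of the 13 was higher in both genotypes and 2 were lower, which is 7.69% and 15.4%. Of all genes, 9.71% were higher and 8.58% lower in wild type, and 11% and 12.5% in Mfp2-/- cells. The higher one of the 13 was Cebpb, a transcription factor of macrophage activation and fat cell formation. It was at 1.28 in wild type and 1.58 in Mfp2-/- cells. Lower were its relative Cebpa, at -1.39 and -1.21, and Ppargc1b, a coactivator of oxidative metabolism, at -1.55 and -2.63.

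Of the other genes of fatty acid binding and uptake, 3 of 8 were higher with LPS in wild type and 1 of 8 in Mfp2-/- cells. In both genotypes 0 were lower. The higher are 37.5% and 12.5%, against 9.71% and 11% of all genes, of which 8.58% and 12.5% were lower. The counts differ by 2 genes near the threshold or the background: Fabp3 was 1.72 and 0.95 with LPS in wild-type and Mfp2-/- cells, and Olr1, a receptor of oxidised lipoprotein that was below background without LPS, was at least 2.42-fold and at least 1.45-fold higher. Fabp3, the heart-type carrier, gave 110 and 327 in untreated and LPS-treated wild-type cells and 311 and 493 in Mfp2-/- cells, so like Fabp5 it was higher in Mfp2-/- cells, by 1.46 without LPS and 0.68 with LPS. Msr1, a scavenger receptor of modified lipoprotein, gave 844 and 4020 in wild-type cells and 47.0 and 2081 in Mfp2-/- cells. Its genotype difference was -4.21 without LPS and -0.86 with LPS, where that of Cd36 was past -3 in both. With normexp that of Cd36 was -2.33 without LPS and -3.05 with LPS. The 47.0 of Msr1 compares with a lowest signal well above background of 20.2 on that array. Slc27a1, a fatty acid transport protein, was 0.75 and 0.92 with LPS in wild-type and Mfp2-/- cells, below 2-fold.

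**Figure D4:**
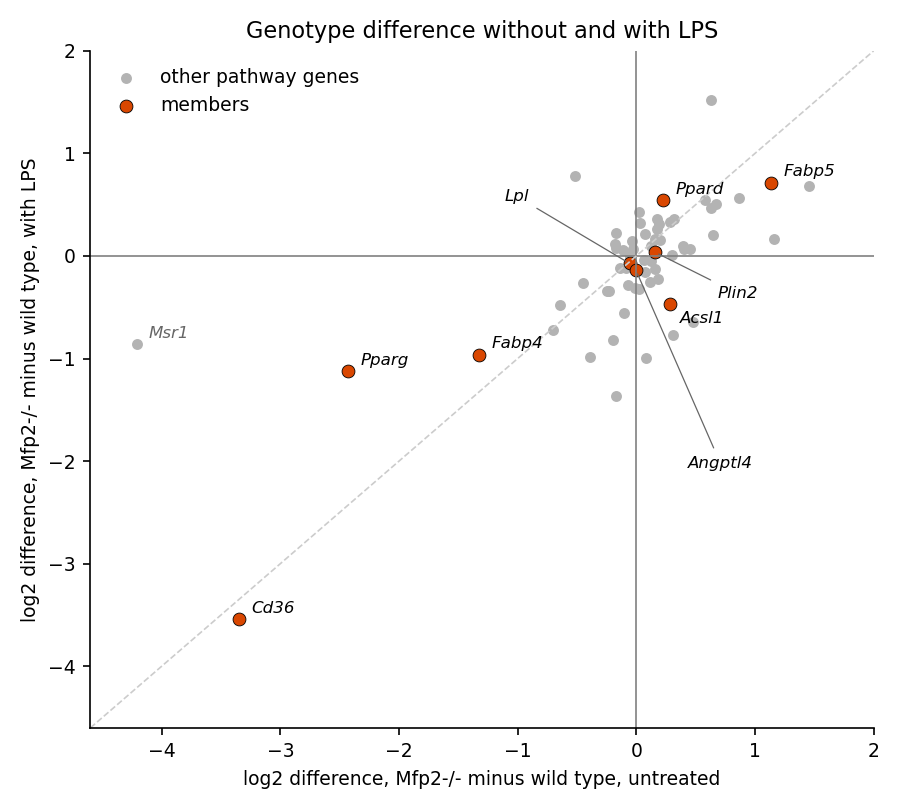
Log2 difference between Mfp2-/- and wild-type cells without LPS (x axis) against that with LPS (y axis), for the 9 genes (orange) and the 57 other pathway genes above background on all 4 arrays (grey). The axes share no array, and the dashed line marks equal differences. Cd36 lies near the dashed line at about the same distance below 0 on both axes, whereas Pparg and Msr1 lie above it, with smaller differences under LPS.

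Droplet coat and triglyceride synthesis genes had 1 of 13 higher with LPS in wild type. In Mfp2-/- cells 1 of 15 was higher and 4 were lower. The higher are 7.69% and 6.67%, against 9.71% and 11% of all genes. The 4 lower are 26.7%, against 12.5% of all genes. With normexp 1 of 15 was lower, which is 6.67%, against 7.30% of all genes. Among genes well above background on both arrays 2 of 13 were lower, which is 15.4%, against 11.2% of all such genes. Hilpda, which encodes an inhibitor of droplet lipolysis, was the gene that was higher in both, by 2.22 and 2.62. Lpin2, a phosphatidate phosphatase of triglyceride synthesis, gave 2187 and 1112 in wild-type cells and 5061 and 1170 in Mfp2-/- cells, so it was 1.16 higher in untreated Mfp2-/- cells and -1.83 with LPS in those cells. Dgat2, which makes the last step of triglyceride synthesis, gave 210 and 192 in wild-type cells and 335 and 519 in Mfp2-/- cells, a genotype difference of 1.52 with LPS. Plin1, the droplet coat protein of fat cells, was above background only in untreated Mfp2-/- cells, with a signal of 57.2, at least 2.47-fold above untreated wild type.

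Genes of lipolysis and lipoprotein lipase handling had 0 of 7 and 0 of 8 past 2-fold between genotypes without and with LPS. Of all genes, 6.99% and 6.25% were. Gpihbp1, which anchors lipoprotein lipase on capillary walls, had an LPS difference of -0.39 in wild type and 0.90 in Mfp2-/- cells at signals between 46.9 and 75.8. Single spots of such signal had a technical SD of 0.28 on each array. The LPS responses differed by 2-fold for 1 of 7 genes of this list, Gpihbp1, and for 0 with normexp. Over the 5 lists, 2 of 57 responses were higher and 5 lower in Mfp2-/- cells, which is 3.51% and 8.77%. Of all genes 1.69% were higher and 2.92% lower. With normexp 1 of the 57 was higher and 0 lower, where 0.93% and 1.49% of all genes were.

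In the list of acyl-CoA synthetases, pyruvate dehydrogenase kinases and oxidation targets of PPARs, 1 of 19 was higher and 2 lower with LPS in wild type. These are 5.26% and 10.5%, against 9.71% and 8.58% of all genes. In Mfp2-/- cells 2 were higher and 5 lower. The 2 higher are 10.5%, against 11% of all genes. The 5 lower are 26.3%, against 12.5% of all genes. With normexp 3 were lower, which is 15.8%, against 7.30% of all genes. Cpt1a, which admits fatty acids to mitochondria, was -1.17 with LPS in wild type and -2.29 in Mfp2-/- cells. Pdk1, a kinase of the same family as Pdk4, was -1.42 and -1.44, and Pdk2 was at least 2.55-fold lower with LPS than without it in Mfp2-/- cells. Without LPS Pdk2 was 1.08 higher in Mfp2-/- than in wild-type cells. With normexp background correction 0 of the 19 genes passed 2-fold between untreated genotypes, where 1.18% of all genes were higher and 1.67% lower. Pdp1, the phosphatase that opposes these kinases, was -0.12 with LPS in wild type and -1.31 in Mfp2-/- cells. It was the 1 of 18 genes past 2-fold between genotypes with LPS, at -1.37, and with normexp 0 of 18 were. Of all genes 6.25% were, and with normexp 0.71% were higher and 1.74% lower.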

How the data were processed

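Cy3-labelled cRNA from the total RNA of 4 RAW264.7 samples was read on 1-colour Agilent arrays (design 074809), 1 for each group, as the labels and headers state. Per the file headers, the deposited scanner files give linear intensity for every spot, background subtracted and detrended within an array, with surrogate values for low spots and no scaling between arrays. They name Agilent Feature Extraction 10.7.1.1, and the submitters' processing notes name 9.5.1.1. Each spot also has deposited 0 or 1 flags (unit other) for signal over background, saturation and outliers. In the series table that the authors deposited, the values are linear intensity with the same median, 15.6, in each column. At least 52837 of 56601 probes in each column lay within 0.01 log2 of quantile normalized scanner values, so its scale and direction were settled, and it was used as an alternative.

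From the mean log2 signal of each probe's spots was taken that array's 75th percentile, controls left out, which on the linear scale was between 303 and 370. Outlier spots were left out, and 0 non-control spots were saturated. A gene was represented by 1 probe: with a value on all 4 arrays, then above background on at least 1, then the brightest. On a dim array, a bound was set from the lowest signal well above background, or from the probe's own signal if that was higher, written "at least". No p-value was computed, since each group has 1 array, and the number of arrays limits the precision. Technical SDs pool replicate spots over the 4 arrays by signal. They are 0.41 for single spots under 5 on the log2 scale, 0.28 for 5 to 7, 0.10 for 7 to 11 and 0.07 above. In this order they rest on 97, 14, 17 and 1072 sets of spots of a probe on an array. The SDs of the middle ranges thus come from few sets. Members, gene lists and the rule for named genes (members, the 3 nearest profiles to Pparg and Cd36, up to 4 genes of each list with the largest difference) were chosen with earlier results of these data known. Pmp2, Fabp9, Fabp12 and Rxrb were added after their values were seen. Alternatives were normexp background correction (offset 50), other scalings, the deposited table, dim-probe filters, the mean of a gene's probes, and 1.5-fold and 4-fold thresholds, applied to the gene lists only after their values were seen. R 4.3.3 with limma 3.58.1 gave the normexp values, and Python 3.11.15 with numpy 2.4.6, pandas 2.3.3 and matplotlib 3.10.9 the rest. Probe positions are in mm9, as in the files, without gene annotation. Promoter windows are from RefSeq on GRCm38.p6 and were found for 6 of 10 genes, not for Fabp4, Fabp5, Lpl or Angptl4. A gene counted in the lists is not reported by name here.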

Additional observations from a re-analysis of the deposited data

Results flagged for a closer look

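Direction differed between the genotypes or conditions for 4 probes, and this was not tested. Lpl probe A_55_P2738847 had an LPS response above 0 in wild-type and below 0 in Mfp2-/- cells, and the responses differed by -0.98, as did Lpl probe A_55_P2900592, by -0.88. The brighter Acsl1 probe did the same by -0.75, and its genotype difference was above 0 without LPS and below 0 with LPS, which is the same value of -0.75. Its wild-type LPS response was 0.03 with a technical SD of 0.12, and was below 0 in 4 of 7 alternatives, down to -0.18 with spike-in centring, so the opposite directions of the LPS response were absent there. The other Acsl1 probe had genotype differences of 0.13 without LPS and -0.03 with LPS, which differ by -0.15, less than its technical SD of 0.20.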

How the results depend on the processing

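All 18 member differences past 2-fold kept their sign under the 7 alternatives of scaling, background, source and probe, and 15 kept their side of 2-fold. The exceptions were Cd36 with LPS in Mfp2-/- cells (0.89 with normexp), Fabp4 between untreated genotypes (-0.58 with normexp) and Pparg between LPS-treated genotypes (-0.38 with normexp and below 2-fold with median centring), each with an array under 4 times the lowest signal well above background, and the cause was not tested. Of the 27 other differences 1 passed 2-fold, Fabp4 between LPS-treated genotypes, at -1.02 with the percentile of probes above background and also with spike-in centring. Of the counts, the lower genes between LPS-treated genotypes went from 2 to 1 with normexp, with median centring and at 4-fold. At 4-fold the higher genes with LPS were 1 in wild type and 2 in Mfp2-/- cells, the lower genes with LPS in wild type 1, and the higher genes between untreated genotypes and between the responses 0. At 1.5-fold the lower genes with LPS in Mfp2-/- cells were 2, the higher genes between LPS-treated genotypes 1 and the lower genes between the responses 1. The other 99 of 110 counts stayed within 1.5 times. Spike-in centring moved the median of all genes with LPS to -0.20 in wild type and -0.24 in Mfp2-/- cells, and median centring moved it to 0.14 in Mfp2-/- cells and to 0.21 between LPS-treated genotypes. No paired analysis was possible because each group has 1 array.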
